A study of Mus musculus with 15 samples.

Results

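AMP-activated protein kinase (AMPK) is read here through the transcripts of 6 subunit genes and of Stk11, which encodes its upstream kinase LKB1, in heart muscle cells of newborn and adult mice. The 7 genes were chosen by name: the 2 catalytic alpha subunits (Prkaa1 and Prkaa2), the 2 scaffolding beta subunits (Prkab1 and Prkab2), 2 of the gamma subunits (Prkag1 and Prkag2) and Stk11. All 7 were among the 9666 genes listed in the deposited table, and all 7 passed the filter on low values that left 9389 genes for testing. Prkag3, the remaining gamma subunit gene, was looked for under its name, found in 0 rows, and is not analysed here.

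All libraries were made from isolated ventricular heart muscle cells of C57BL/6 mice labelled wild type, with no transgene, deletion or treatment named for any group: 4 libraries of postnatal day 1 (P1), 4 of postnatal day 3 (P3) and 7 of adults aged 8 to 12 weeks. The study set adult cells against neonatal ones, taken at an age when the heart can still regenerate, in a search for mediators of cardiac muscle regeneration. The labels do not say that each library came from its own animal or that hearts were pooled, so a p-value here reflects sample spread that may be technical. Values are RPKM (reads per gene kilobase and per 1000000 reads), and changes are differences of group means of log2(RPKM + 0.5), the later stage minus the earlier one.

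AMPK is a heterotrimer that senses cellular energy. The alpha subunit carries the kinase domain, the beta subunit holds the trimer together and binds glycogen, and the gamma subunit binds AMP, ADP and ATP. Phosphorylation of a threonine in the activation loop of the alpha subunit, by LKB1 or by the calcium-dependent kinase CaMKK2, switches the enzyme on, after which it promotes glucose uptake, glycolysis and fatty acid oxidation and restrains protein, lipid and glycogen synthesis. In adult heart muscle the alpha2 subunit is known as the main catalytic isoform.

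The alpha subunits share the loop that LKB1 phosphorylates, and their coding sequences show how far short reads could tell the 2 genes apart. The stretch below covers 45 coding bases of GENCODE transcripts Prkaa1-201 (coding bases 541 to 585, threonine codon 183) and Prkaa2-201 (coding bases 508 to 552, threonine codon 172), with the 9 bases that differ in capitals. It is printed because both members are phosphorylated within it.
Prkaa1: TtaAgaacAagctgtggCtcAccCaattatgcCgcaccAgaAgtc
Prkaa2: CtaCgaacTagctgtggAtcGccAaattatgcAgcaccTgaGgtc
Over the whole aligned coding sequence the alpha pair was 71.2% identical, with a longest shared run of 35 bases. The beta pair was 73.3% identical with a longest shared run of 23 bases, and the gamma pair 69.9% with 15 bases. None of the 3 pairs is near-identical.

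The upstream windows of the alpha genes are shown because these 2 genes parted most between stages. Each line gives the 250 bases before the RefSeq start (RefSeq annotation of GRCm38.p6), 5′ to 3′ on the gene's strand, at chr15:5143611-5143860 on the plus strand for Prkaa1 and chr4:105109899-105110148 on the minus strand for Prkaa2. Capitals mark GGGCGG on either strand (the GC box).
Prkaa1: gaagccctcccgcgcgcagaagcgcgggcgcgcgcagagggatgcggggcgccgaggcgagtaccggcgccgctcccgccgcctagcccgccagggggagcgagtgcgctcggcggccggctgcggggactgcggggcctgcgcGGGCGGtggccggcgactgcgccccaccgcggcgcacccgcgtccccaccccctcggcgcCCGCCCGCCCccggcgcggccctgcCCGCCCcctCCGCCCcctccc
Prkaa2: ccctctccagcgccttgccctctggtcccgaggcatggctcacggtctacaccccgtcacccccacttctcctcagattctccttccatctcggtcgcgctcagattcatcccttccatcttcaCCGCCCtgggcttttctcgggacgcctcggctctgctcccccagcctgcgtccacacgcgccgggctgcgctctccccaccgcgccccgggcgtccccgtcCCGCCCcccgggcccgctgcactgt
The Prkaa1 window held 5 matches of GGGCGG, of which one pair overlaps, and the Prkaa2 window held 2. GC content was 85.2% with 45 CpG dinucleotides for Prkaa1 and 70% with 24 for Prkaa2, against medians of 52.4% and 6 over 32851 promoter windows of the same length. Among all windows 32.7% hold GGGCGG. The other motifs searched on both strands were CCAAT (33.8% of windows), TATAAA (12.4%), AAGGTCA (the core bound by estrogen-related receptors, 4.08%), CANNTG (the E-box, 66.2%) and AGATAA (9.99%), and none of these was found in either alpha window. Elsewhere in the family, GGGCGG was matched 5 times before Prkab2, 1 time before Prkag1, 0 times before Prkab1 and Stk11, and 2, 0 and 1 times before the 3 RefSeq starts of Prkag2. CCAAT was matched 3 times before Stk11, 1 time before Prkag1, and 1, 2 and 0 times before those Prkag2 starts, and AAGGTCA a single time, before the middle start of Prkag2. The 2 CCAAT matches at that middle start overlap each other on opposite strands. Matches are a description of these windows and do not show binding.

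All 7 are protein-coding genes of mm10. In GENCODE, Prkaa1 lies on chromosome 15, 5143861 to 5181899, plus strand, and Prkag1 on the same chromosome, 98812797 to 98831521, minus strand. Prkaa2 lies on chromosome 4, 105029874 to 105109890, minus strand. Prkab1 and Prkag2 are both on the minus strand of chromosome 5, at 116013586 to 116024508 and 24862744 to 25100642. Prkab2 lies on chromosome 3, 97658193 to 97673812, plus strand, and Stk11 on chromosome 10, 80115803 to 80130682, plus strand. Prkag2 overlaps 3 genes on the opposite strand, Prkaa2 overlaps 0, and each other member overlaps 1. Overlap was taken over whole gene spans, introns included, and not over exons. No source used here gives the strand of counting, so where exons of a member and its partner overlap, their reads might not be told apart.

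Whole reads could be recovered from the RPKM steps for 8418 genes (87.1%, relative tolerance 3e-05). With GENCODE exon lengths the depth, in units of 1000000 reads, was estimated at 7.48 to 8.02 in P1, 6.74 to 9.68 in P3 and 8.94 to 15.8 in adult libraries. Of the recovered reads 99.94% to 99.99% were even numbers in adult replicates 1 to 4, against 48.4% to 50.7% in the other 11 libraries, so adult values are also given within each of these 2 sets where the choice of set changes a call or moves a change by much. The fewest reads behind a member in any library were 86 for Prkaa1, 114 for Prkag2, 153 for Prkaa2, 160 for Prkab2, 174 for Prkab1 and 420 for Prkag1, and Stk11 was not solved. If 2 reads count as 1 in adult replicates 1 to 4, the fewest were 43, 57, 153, 80, 87 and 345 in that order. The depths given above for those libraries count every read and would then be lower too. Cardiomyocyte markers (10 of 10 listed, summed RPKM) ran from 5572 to 13155 in P1, from 662 to 6010 in P3 and from 17442 to 34125 in adult libraries. Endothelial markers (9 of 12 listed) ran from 210.1 to 481 in P1, 706 to 1668 in P3 and 2.74 to 215 in adult, fibroblast markers (4 of 8) from 158 to 1331, 367 to 791 and 0.917 to 68.5 in the same order, and mural markers (3 of 6) from 110 to 503, 407 to 711 and 19.4 to 98.3. No marker in the table was at 0, and the immune and erythroid lists had 0 members in the table. Every library thus carried the cardiomyocyte markers. These were lowest in P3 replicates 2 to 4, and the endothelial markers were highest in P3. In P3 replicates 3 and 4 the summed endothelial markers (1239 and 1668 RPKM) exceeded the summed cardiomyocyte markers (728 and 662 RPKM). Sums over different genes do not give shares of cells. P1 replicate 1 and P3 replicate 1 stood apart within their groups. P1 replicate 1 carried 1331 RPKM of fibroblast markers against 158 to 193 in the other P1 libraries, and P3 replicate 1 carried 6010 RPKM of cardiomyocyte markers against 662 to 1359 in the other P3 libraries.

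The RPKM scale itself shifted between stages. The median RPKM of a library was 8.41 to 8.79 in P1, 8.84 to 9.59 in P3 and 2.02 to 3.52 in adult. On the log2 scale the median gene changed by -1.36 for adult minus P1, by -1.48 for adult minus P3 and by 0.09 for P3 minus P1. Changes are therefore given on the deposited scale and relative to the median tested gene of the same library (median-relative values), and pairs of isoforms are also compared as ratios within a library, which multiplying a library by one factor cannot alter.

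Prkaa1, the gene of the alpha1 catalytic subunit, fell in adult cells to a small share of its neonatal level. It stood at 11.3, 10.8, 12.9 and 13.0 RPKM in the 4 P1 libraries, at 12.8, 15.4, 14.8 and 13.1 RPKM in the 4 P3 libraries, and between 0.83 and 1.95 RPKM in the 7 adult libraries, with a median of 1.55 RPKM. Each adult library lay below each neonatal one, and the P1 and P3 libraries overlapped. Mean RPKM was 12.0 ± 1.12 at P1 and 14.0 ± 1.25 at P3 (SD, n = 4 each), and 1.46 ± 0.35 in adult (SD, n = 7). In limma the log2 change was -2.69 between adult and P1 (SE 0.17, adjusted p = 3.0e-10), a 6.46-fold difference on the log2(RPKM + 0.5) scale, and -2.91 between adult and P3 (SE 0.17, adjusted p = 5.9e-11).

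The fall of Prkaa1 was larger than the shift of the median gene. Its median-relative change was -1.24 for adult minus P1 (limma adjusted p = 3.3e-07) and -1.36 for adult minus P3 (limma adjusted p = 5.0e-08). The libraries did not overlap on this scale either, and each comparison had an exact permutation p of 0.003 (two-sided), the lowest that 330 splits can give. Among all listed genes Prkaa1 ranked at the 60.4th percentile at P1, the 63.0th at P3 and the 31.3rd in adult, as means over libraries. Between P3 and P1 the change was 0.21 (limma adjusted p = 0.49). Summed endothelial, fibroblast and mural markers were also lower in adult libraries than in P3 libraries. Of the 3 mural markers Acta2 carried the sum (27.4 RPKM in adult, against 495 RPKM at P3), while Rgs5 averaged 23.7 RPKM in adult, against 8.71 RPKM at P3. The part of these cell types in the Prkaa1 values was not tested. In these bulk samples, fewer cells of a type and less RNA per cell cannot be told apart.

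Prkaa2, which encodes the alpha2 catalytic subunit, was spread widely among the neonatal libraries. Its RPKM was 3.99, 26.8, 26.1 and 18.9 in P1 replicates 1 to 4 and 11.6, 3.89, 2.37 and 1.82 in P3 replicates 1 to 4. In adult replicates 1 to 7 it was 9.74, 7.22, 8.34, 4.57, 11.4, 12.4 and 14.96 RPKM. P1 replicates 2 to 4 were the highest of all 15 libraries and P3 replicates 2 to 4 the lowest. P1 replicate 1 lay just above those 3, and P3 replicate 1 lay between the P3 and P1 libraries numbered 2 to 4. Means were 18.9 ± 10.6 RPKM at P1, 4.92 ± 4.54 RPKM at P3 (SD, n = 4 each) and 9.79 ± 3.46 RPKM in adult (SD, n = 7).

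Between P3 and P1, Prkaa2 fell by 1.87 on the log2 scale (SE 0.53, limma adjusted p = 0.037). The groups overlapped only through the 2 libraries numbered 1, and the exact permutation p was 0.057. This call ended when any one of P1 replicates 2 to 4 or P3 replicates 2 to 4 was left out, with log2 changes from -1.88 to -1.57. Without P1 replicate 1 and P3 replicate 1, an alternative added after the values were seen, the change was -2.97 (limma adjusted p = 1.4e-05).

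Adult Prkaa2 was 1.17 higher than P3 Prkaa2 on the log2 scale (SE 0.47, limma adjusted p = 0.028), with overlapping groups, and 2.71 higher relative to the median gene (limma adjusted p = 7.0e-05), where the groups did not overlap. On the deposited scale this call ended without P3 replicate 2 (1.17, adjusted p = 0.051), without P3 replicate 3 (0.97) or without P3 replicate 4 (0.87), and it ended with adult replicates 1 to 4 alone (0.83, limma adjusted p = 0.18) but not with adult replicates 5 to 7 alone (1.62, limma adjusted p = 0.030). These adult sets averaged 7.47 and 12.9 RPKM. Against P1 the adult change was -0.70 (SE 0.47, limma adjusted p = 0.17) and 0.75 relative to the median gene (limma adjusted p = 0.18). On the deposited scale it was -1.04 with adult replicates 1 to 4 alone and -0.25 with adult replicates 5 to 7 alone (limma adjusted p = 0.098 and 0.72). Without P1 replicate 1 the deposited change was -1.31 and passed the test (limma adjusted p = 0.0064). The stages thus ranked P1, adult, P3 by mean RPKM and adult, P1, P3 relative to the median gene, with adult and P1 not told apart by the fit of all libraries on either scale.

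Cardiomyocyte markers moved with Prkaa2 among the neonatal libraries. The 4 neonatal libraries highest in Prkaa2 (P1 replicates 2 to 4 and P3 replicate 1) were also the 4 highest in summed cardiomyocyte markers, at 11053, 9307, 13155 and 6010 RPKM. P1 replicate 1 had 5572 RPKM of these markers, and P3 replicates 2 to 4, the lowest in Prkaa2, had 1359, 728 and 662 RPKM. Adult libraries had more marker RPKM than any neonatal library but less Prkaa2 than P1 replicates 2 to 4. Per 1000 RPKM of cardiomyocyte markers, Prkaa2 was 0.134 to 0.661 in adult libraries, 0.716 to 2.80 in P1 libraries and 1.93 to 3.26 in P3 libraries. On this measure the P3 libraries did not lie below the P1 libraries. Since it divides by the markers, which were lowest in P3 replicates 2 to 4, it does not give a level per cardiomyocyte. The part of cell composition in these values was not tested.

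**Figure D1:**
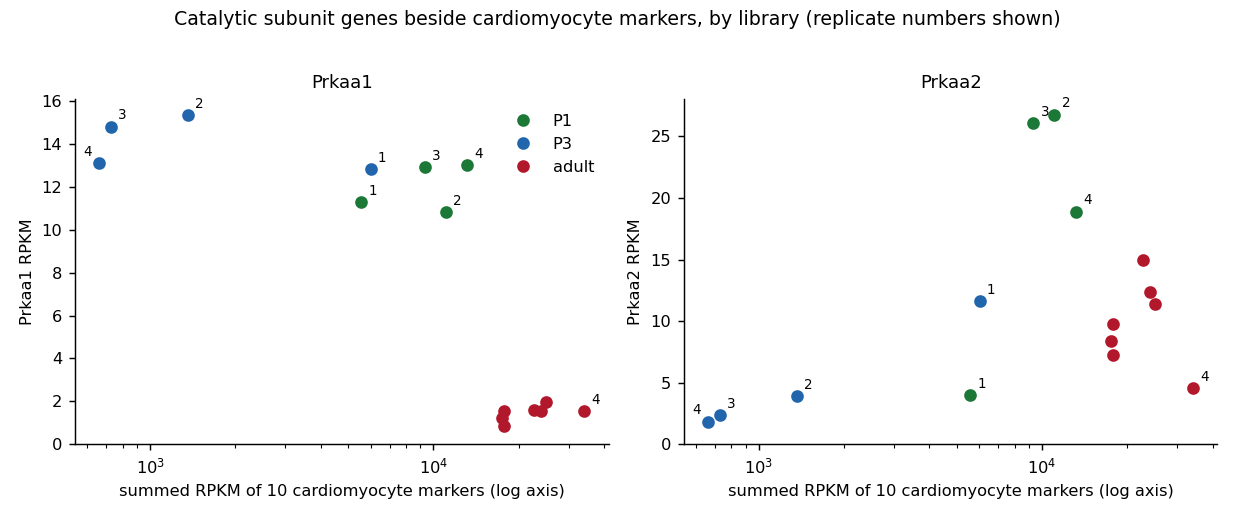
Each point is 1 library, with RPKM of Prkaa1 (left) or Prkaa2 (right) against the summed RPKM of 10 cardiomyocyte markers on a log axis, and numbers are replicate numbers. Prkaa1 separates the adult libraries (at most 1.95 RPKM) from all neonatal ones (at least 10.8 RPKM), while Prkaa2 is lowest in P3 replicates 2 to 4, which also have the least marker RPKM.

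Because the alpha genes moved apart, the catalytic isoform mix differed between adult and neonatal libraries. Prkaa2 made up 26.1%, 71.2%, 66.8% and 59.2% of the summed alpha RPKM in P1 replicates 1 to 4, and 47.5%, 20.2%, 13.8% and 12.2% in P3 replicates 1 to 4. In adult libraries the share was 74.8% to 90.3%, with a mean of 86.1% ± 5.30 (SD, n = 7). Every adult library had a higher share than every neonatal library. The log2 ratio of Prkaa2 to Prkaa1 was 2.36 higher in adult than in P1 libraries (SE 0.67), a 5.13-fold difference, and 4.60 higher in adult than in P3 libraries (SE 0.65), a 24.3-fold difference. Both gave an exact permutation p of 0.003, or 0.0091 after Benjamini-Hochberg adjustment over the 9 ratio tests. A ratio within a library removes its scaling but not its cell mix. Per 1000 RPKM of cardiomyocyte markers, Prkaa1 was 11.3 to 20.4 in P3 replicates 2 to 4, against 0.979 to 2.13 in the other neonatal libraries. The part of cell mix in the alpha ratio was not tested.

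Within the neonatal period the alpha ratio was 2.24 lower in P3 than in P1 (exact permutation p = 0.057, adjusted 0.086), which did not pass. Without P1 replicate 1 and P3 replicate 1 the difference was -3.44 and the libraries no longer overlapped, with an exact permutation p of 0.1, the smallest that 3 against 3 allows. Adult replicate 4 had the lowest adult share of Prkaa2 (74.8%) together with the largest RPKM sum of the adults, 280112 against 145050 to 195003 in the others. The alpha difference kept its sign and its separation against each adult set: it was 2.19 and 2.58 against P1, and 4.43 and 4.82 against P3, with adult replicates 1 to 4 and with adult replicates 5 to 7 in that order.

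**Figure D2:**
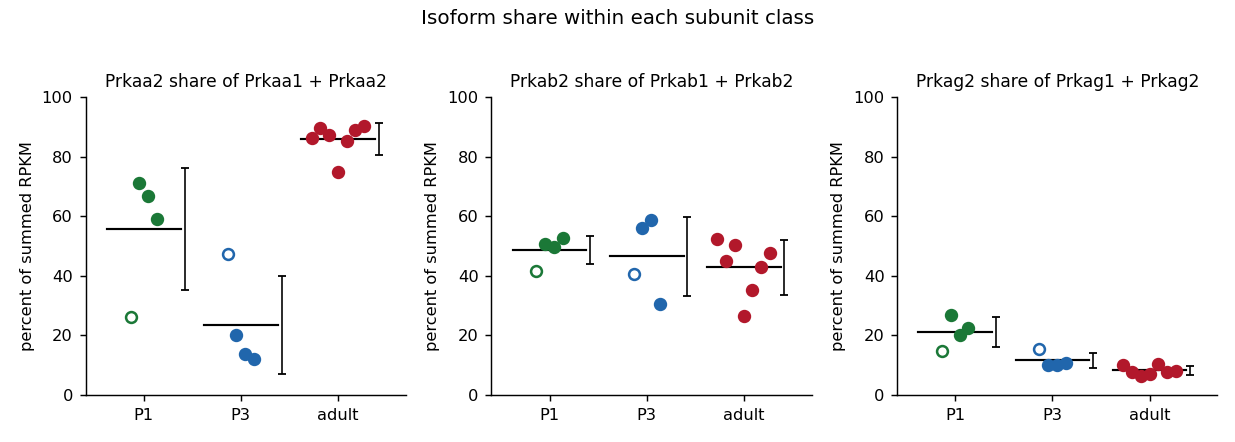
Points are libraries, lines are group means and bars are SD, with the y axis giving the percent of the summed RPKM of each isoform pair that Prkaa2, Prkab2 or Prkag2 holds; open points are replicate 1 of P1 and P3. Adult libraries hold 74.8% to 90.3% Prkaa2, above all neonatal libraries, Prkab2 overlaps in all 3 stages, and Prkag2 is lower in each adult library than in each P1 library.

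For the beta subunit genes no shift of the isoform balance was detectable. Prkab1 was 12.2, 10.6, 12.2 and 12.0 RPKM in P1, 13.4, 13.2, 11.1 and 15.7 RPKM in P3, and 4.71, 4.97, 4.33, 8.31, 9.48, 8.25 and 7.503 RPKM in adult replicates 1 to 7. Adult libraries lay below the neonatal ones, and among them replicates 1 to 3 lay below replicates 4 to 7. Prkab2 was 8.68, 10.9, 12.0 and 13.4 RPKM in P1, 9.24, 16.9, 15.8 and 6.91 RPKM in P3, and 5.21, 4.04, 4.41, 2.99, 5.15, 6.25 and 6.87 RPKM in adult libraries. The highest adult library (6.87 RPKM) and the lowest P3 library (6.91 RPKM) of Prkab2 almost touched.

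On the deposited scale Prkab2 fell in adult cells, by 1.12 against P1 (SE 0.25, limma adjusted p = 3.8e-04) and by 1.16 against P3 (SE 0.25, limma adjusted p = 2.5e-04). The P3 comparison lost its call without P3 replicate 2 (-0.98), and against adult replicates 5 to 7 alone the changes were -0.83 and -0.87, short of the fold threshold. Prkab1 changed by -0.80 against P1 (limma adjusted p = 0.0018) and by -0.97 against P3 (limma adjusted p = 3.0e-04), which did not reach a log2 change of 1. The P3 comparison passed without P3 replicate 3 or without any one of adult replicates 4 to 7, with changes of up to -1.05. Against adult replicates 1 to 4 alone the Prkab1 changes were -1.05 and -1.22, and against replicates 5 to 7 alone -0.46 and -0.63. The direction turned for both genes in median-relative values. Against P1 and P3, Prkab1 changed by 0.65 and 0.58 (limma adjusted p = 6.4e-04 and 0.0014), under the fold threshold. Prkab2 changed by 0.33 and 0.38 (limma adjusted p = 0.26 and 0.18), which did not pass.

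The share of Prkab2 in the summed beta RPKM averaged 48.7% ± 4.84 at P1, 46.6% ± 13.3 at P3 (SD, n = 4 each) and 42.9% ± 9.18 in adult (SD, n = 7). The log2 ratio of Prkab2 to Prkab1 differed by -0.35 between adult and P1 (SE 0.26, exact permutation p = 0.30), by -0.22 between adult and P3 (SE 0.45, p = 0.61 by the same exact test) and by -0.14 between P3 and P1 (SE 0.42, exact permutation p = 0.77). No difference in the beta ratio was detectable with this spread.

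Prkag1, which encodes the broadly expressed gamma1 subunit, had the highest RPKM of the 7 genes in each library. It was 37.3, 59.3, 50.3 and 37.1 RPKM in P1, 48.2, 29.5, 26.1 and 25.0 RPKM in P3, and 23.9, 21.4, 21.5, 35.9, 27.2, 31.6 and 26.7 RPKM in adult libraries. The adult libraries lay below all P1 libraries and overlapped the P3 libraries. The change was -0.76 between adult and P1 (SE 0.22, limma adjusted p = 0.0036), under the fold threshold, and -0.23 between adult and P3 (limma adjusted p = 0.33). Its median-relative change was 0.69 for adult minus P1 and 1.32 for adult minus P3, the second past both thresholds (limma adjusted p = 3.6e-06). Its mean percentile was 88.1 at P1, 82.2 at P3 and 91.05 in adult. For P3 minus P1, Prkag1 changed by -0.53 (limma adjusted p = 0.17), or -0.63 median-relative (limma adjusted p = 0.041), under the fold threshold. Without P1 replicate 1 and P3 replicate 1 these were -0.83 and -0.90 (limma adjusted p = 0.019 and 0.0014), still under it. P3 replicate 1 had 48.2 RPKM, and the other P3 libraries, at 25.0 to 29.5 RPKM, had the least cardiomyocyte marker RPKM. The part of cell composition in the Prkag1 values was not tested.

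Prkag2, the gene of the gamma2 subunit, whose human counterpart is linked to a glycogen storage cardiomyopathy, fell in adult cells relative to P1. It was 6.40, 21.8, 12.7 and 10.8 RPKM in P1, 8.88, 3.26, 2.96 and 2.96 RPKM in P3, and 2.68, 1.78, 1.47, 2.78, 3.20, 2.61 and 2.37 RPKM in adult libraries. All adult libraries lay below all P1 libraries, and P3 replicates 2 to 4 ran from 2.96 to 3.26 RPKM, around the highest adult value of 3.20 RPKM. The log2 change was -2.11 between adult and P1 (SE 0.31, limma adjusted p = 3.8e-06) and -1.44 between P3 and P1 (SE 0.34, limma adjusted p = 0.020), and -0.67 between adult and P3 (limma adjusted p = 0.049, under the fold threshold).

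On the median-relative scale Prkag2 changed by -0.66 for adult minus P1 (limma adjusted p = 0.045), no longer past the fold threshold. For adult minus P3 it changed by 0.88 (limma adjusted p = 0.0085), opposite in sign to the deposited scale and under the fold threshold. Its P3 change against P1 stayed at -1.54 on that scale (limma adjusted p = 0.0069). The P3 call on the deposited scale ended without P1 replicate 2 (-1.16), without P1 replicate 3 (-1.41) and without P3 replicate 2, 3 or 4 (-1.35 to -1.31), and its exact permutation p was 0.057. Without P1 replicate 1 and P3 replicate 1 the change was -2.07 (limma adjusted p = 4.6e-05). As for Prkaa2, P1 replicate 1 was the lowest P1 library and P3 replicate 1 the highest P3 library. Per 1000 RPKM of cardiomyocyte markers, Prkag2 was 0.823 to 1.97 in P1 libraries and 1.48 to 4.47 in P3 libraries. P3 thus did not lie below P1 on that measure, which divides by markers low in P3 and does not give a level per cardiomyocyte. The part of cell composition in the Prkag2 values was not tested.

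The gamma mix held less Prkag2 in adult than in P1 libraries. Prkag2 held 14.6% to 26.9% of the summed gamma RPKM in P1 libraries (mean 21.1% ± 5.11, SD, n = 4), 9.95% to 15.5% in P3 libraries (mean 11.6% ± 2.66, SD, n = 4) and 6.41% to 10.53% in adult libraries (mean 8.24% ± 1.51, SD, n = 7). Adult and P1 libraries did not overlap, with a log2 ratio of Prkag2 to Prkag1 lower by 1.56 in adult (difference -1.56, SE 0.25), a 2.95-fold difference with an exact permutation p of 0.003, adjusted 0.0091. Between adult and P3 the difference was -0.54 (exact permutation p = 0.027, adjusted 0.061), and between P3 and P1 it was -1.02 (exact permutation p = 0.057, adjusted 0.086), so neither passed after adjustment. The adult and P3 difference passed without P3 replicate 2 (-0.61), without adult replicate 1 (-0.59) or without adult replicate 5 (-0.61).

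Stk11, the gene of the kinase LKB1 that phosphorylates the alpha subunits, changed less than the median gene on the RPKM scale. It was 12.1, 12.5, 9.92 and 9.79 RPKM in P1, 15.4, 14.2, 12.6 and 12.1 RPKM in P3, and 7.68, 7.23, 5.92, 14.3, 9.68, 11.2 and 9.05 RPKM in adult libraries. The adult range overlapped both neonatal ranges, through replicate 4 in the case of P3. On the deposited scale the changes were -0.28 between adult and P1 (SE 0.20, limma adjusted p = 0.20) and -0.57 between adult and P3 (SE 0.20, limma adjusted p = 0.015, under the fold threshold). In median-relative values Stk11 was 1.17 higher in adult than in P1 (limma adjusted p = 1.7e-06), past both thresholds, and 0.98 higher in adult than in P3 (limma adjusted p = 6.6e-06), just under the fold threshold. Its mean percentile was 57.8 at P1, 61.8 at P3 and 77.1 in adult.

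**Figure D3:**
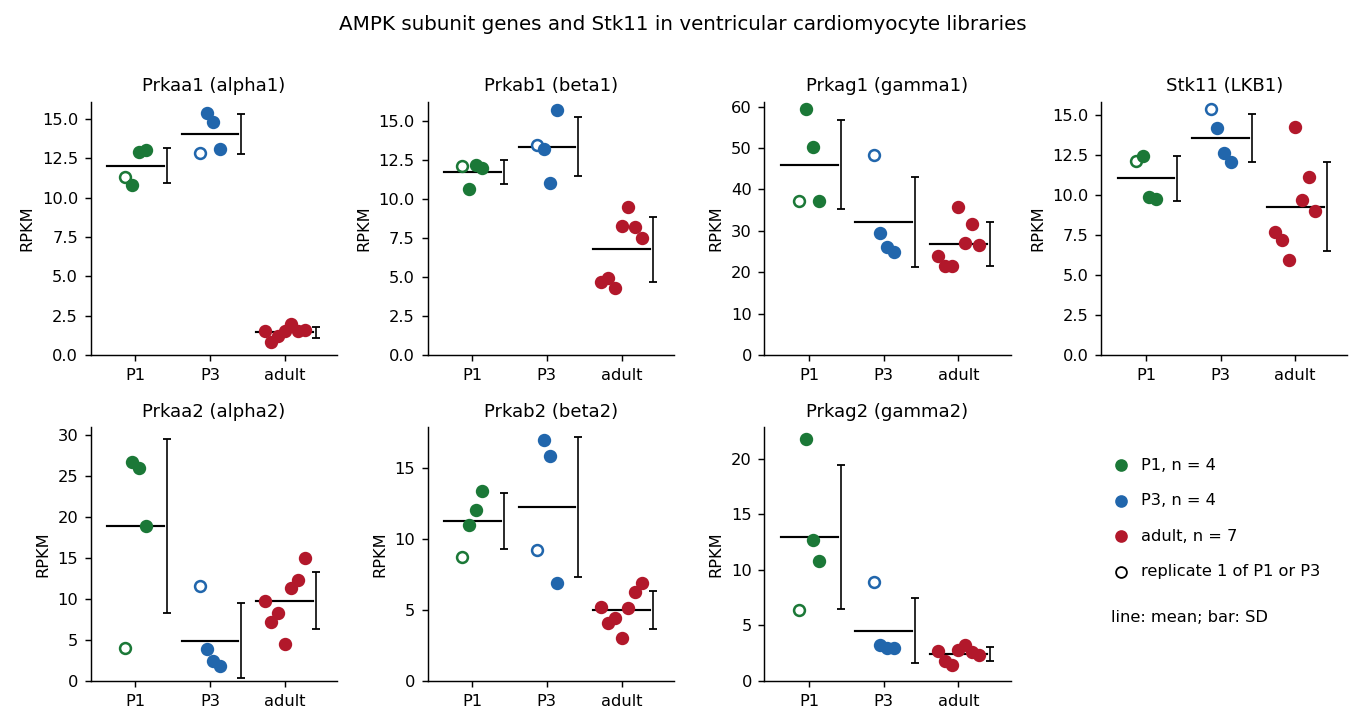
Each panel plots the RPKM of 1 gene by stage, with 1 point per library (P1 n = 4, P3 n = 4, adult n = 7), a line at the mean and a bar for SD; open points are replicate 1 of P1 and P3. Adult libraries lie at or under 1.95 RPKM for Prkaa1, and replicate 1 of each neonatal stage sits toward the other stage for Prkaa2 and Prkag2.

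Counted over the 7 genes on the deposited scale, 3 were called lower in adult than in P1 (Prkaa1, Prkab2 and Prkag2) and 0 higher. The background was high: 62.7% of all tested genes were called lower and 4.32% higher in that comparison. Against P3, 2 were called lower (Prkaa1 and Prkab2) and 1 higher (Prkaa2), where 62.7% and 9.16% of all genes were. Libraries did not overlap for 5 of 7 genes against P1, all lower in adult, beside 65.1% of all genes lower and 4.86% higher, and for 3 of 7 against P3, again all lower, beside 64.3% lower and 7.99% higher. Between P3 and P1, 2 of 7 were called lower (Prkaa2 and Prkag2) and 0 higher, where 5.31% and 1.4% of all genes were. Without overlap between P3 and P1 were 0 of 7, beside 10.7% of all genes higher and 2.53% lower. The called count of 2 became 0 in a fit of only the P1 and P3 libraries, where 86 genes in all were called lower.

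On the median-relative scale the counts over the 7 genes differed. Against P1, 1 gene was called lower in adult (Prkaa1) and 1 higher (Stk11), where 13.7% of all genes were called lower and 21.6% higher. Against P3, 1 was called lower (Prkaa1) and 2 higher (Prkaa2 and Prkag1), where 19.1% and 27.1% were. Prkaa1 was the single member called lower in adult on both scales and in both comparisons. The P3 calls against P1 on that scale were again Prkaa2 and Prkag2, beside a background of 7.54% called lower and 1.18% called higher. The comparisons with adult share the adult libraries, so they do not repeat each other.

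**Figure D4:**
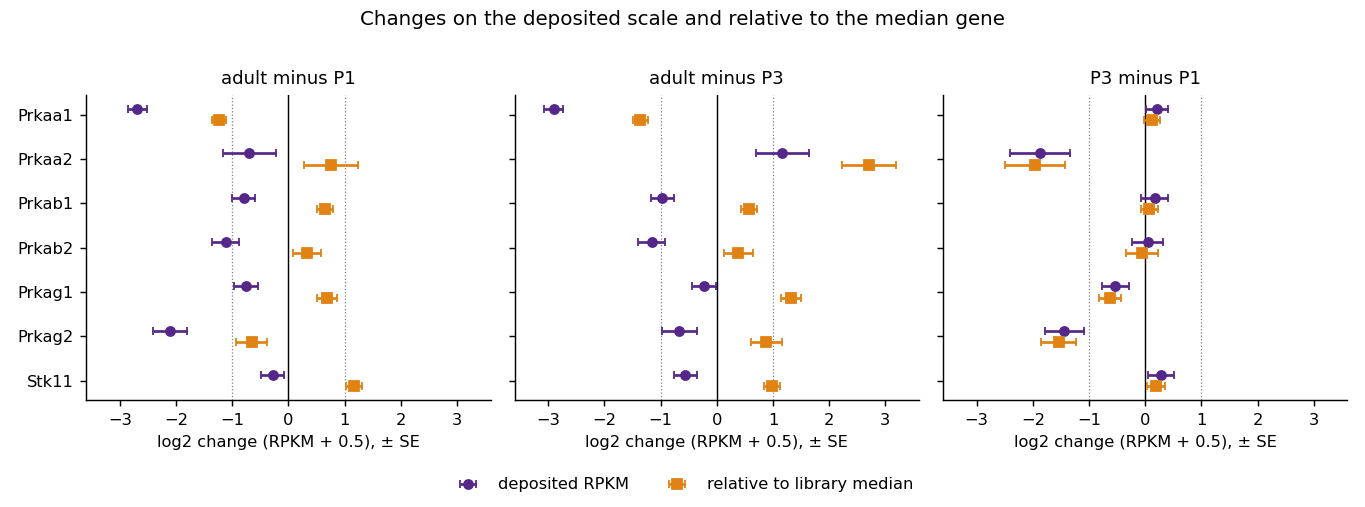
Points are limma log2 changes of RPKM + 0.5 with SE for adult minus P1, adult minus P3 and P3 minus P1, on the deposited scale (circles) and relative to the library's median gene (squares); dotted lines mark a log2 change of 1 in either direction. Prkaa1 is below -1 on both scales in both adult comparisons, while Prkab1, Prkab2, Prkag1 and Stk11 change sign between the scales there, as does Prkaa2 against P1 and Prkag2 against P3.

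Within a stage, RPKM per gene can be set side by side as a level per length, although no source used here gives the gene lengths behind it. At P1, Prkag1 (46.0 ± 10.8 RPKM) stood above the rest, and Prkaa2 (18.9 ± 10.6), Prkag2 (12.9 ± 6.48), Prkaa1 (12.0 ± 1.12), Prkab1 (11.75 ± 0.75), Prkab2 (11.3 ± 1.99) and Stk11 (11.1 ± 1.41) followed within their spread of each other (SD, n = 4). At P3, Prkag1 (32.2 ± 10.9) was followed by Prkaa1, Stk11 (13.6 ± 1.51), Prkab1 (13.4 ± 1.89) and Prkab2 (12.2 ± 4.90), which did not differ beyond their spread, and then by Prkaa2 and Prkag2 (4.52 ± 2.91). In adult, the order was Prkag1 (26.9 ± 5.33), Prkaa2, Stk11 (9.29 ± 2.79), Prkab1 (6.79 ± 2.08), Prkab2 (4.99 ± 1.32), Prkag2 (2.41 ± 0.60) and Prkaa1 (SD, n = 7). Neighbours from Prkaa2 to Prkab2 in that order overlapped, whereas Prkag2 was above Prkaa1 in each of the 7 adult libraries.

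Summed by class, alpha transcripts came to 30.9 ± 10.9 RPKM at P1, 18.9 ± 4.07 RPKM at P3 and 11.3 ± 3.63 RPKM in adult. Beta transcripts came to 23.0 ± 2.15, 25.6 ± 3.64 and 11.8 ± 2.67 RPKM at the same stages, and gamma transcripts to 59.0 ± 16.9, 36.7 ± 13.7 and 29.3 ± 5.73 RPKM (SD, n = 4, 4 and 7). Gamma transcripts were thus the most abundant class on average at each stage.

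The profiles of the members over the 15 libraries were compared by the root mean square difference of log2 values, relative to the library median and centred per gene. Of the 21 pairs of members, Prkab1 and Stk11 were closest (0.32) and the alpha pair farthest apart (1.87). The 3 genes closest to Prkaa1 were Csnk1g3 (a casein kinase 1 isoform, 0.14), Pdcd6ip (the ESCRT-associated protein ALIX, 0.14) and Cad (which starts pyrimidine synthesis, 0.15), beside a spread of 0.66 for Prkaa1 itself. Closest to Prkaa2 were Akap6 (a kinase-anchoring protein of the muscle nuclear envelope, 0.26), Fam13a (0.26) and Esrrg (an estrogen-related nuclear receptor, 0.27), beside a spread of 1.37.

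For Prkag1 the closest genes were Mrpl15, Atpaf2 and Mrpl9 (0.12, 0.14 and 0.14), 2 mitochondrial ribosomal proteins and an ATP synthase assembly factor, beside a spread of 0.60. Prkag2 was closest to Mapre2, Polr1e and Nt5c2 (0.25, 0.27 and 0.30), beside a spread of 0.71. Prkab1 was closest to Calm3, Anapc5 and Lrpap1 (0.15, 0.15 and 0.16) and Prkab2 to Kpna1, Clcn4 and Serinc1 (0.26, 0.28 and 0.28), beside spreads of 0.35 and 0.43. Stk11 was closest to D17Wsu92e, Ctsd and Map7d1 (0.11, 0.12 and 0.14), beside a spread of 0.57. These likenesses are descriptions over libraries that share their stage, depth and cell mix.

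Genes that act upstream of AMPK were counted from a fixed list, of which 23 of 27 were tested. It held kinases and their partners, phosphatases, sestrins, folliculin and its partners, and adenine nucleotide enzymes. The list also named the subunit gene Prkag3, which has no row and so entered no count. A folliculin partner on it is also on the substrate list below and is counted in both. Against P1, 14 were called lower and 0 higher in adult, where 62.7% and 4.32% of all tested genes were, with a list median of -1.55 beside -1.36 for all tested genes. Against P3, 14 were called lower and 4 higher, beside 62.7% and 9.16% of all genes, with a median of -1.27 beside -1.48. In median-relative values 2 were called lower and 6 higher against P1 (13.7% and 21.6% of all genes), and 3 lower and 8 higher against P3 (19.1% and 27.1%). Between P3 and P1, 3 were called lower and 0 higher, beside 5.31% and 1.4% of all genes.

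Among these regulators, Sesn2, a stress-induced sestrin that promotes AMPK activity, averaged 0.33 ± 0.08 RPKM in adult (SD, n = 7), against 8.12 ± 1.76 RPKM at P1 and 7.33 ± 2.31 RPKM at P3 (SD, n = 4 each). Its log2 change was -3.36 against P1 and -3.19 against P3 (limma adjusted p = 1.6e-10 and 1.1e-10). Ppp2cb, a catalytic subunit of protein phosphatase 2A, was 8.30 ± 2.25 RPKM in adult, against 54.8 ± 6.17 RPKM at P1 and 63.0 ± 9.98 RPKM at P3. Fnip2, a partner of folliculin, changed by -2.34 against P1 and -2.61 against P3. Ppm1e, a metal-dependent phosphatase, fell by 1.86 in adult against P1 and by 1.74 in P3 against P1 on the log2 scale (limma adjusted p = 1.1e-05 and 0.0083). In median-relative values for adult minus P1, Sesn2 (-1.91) and Ppp2cb (-1.23) were called lower, while Fnip2 (-0.89) and Ppm1e (-0.41) were not called.

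Rises were found against P3. Ak1, the muscle adenylate kinase, which interconverts AMP, ADP and ATP, averaged 97.96 ± 28.7 RPKM in adult, against 15.9 ± 14.7 RPKM at P3, a log2 change of 2.92 (SE 0.39, limma adjusted p = 1.2e-06). Sesn1, another sestrin, was 2.30 higher in adult than in P3 on the log2 scale (limma adjusted p = 1.0e-05), with groups that did not overlap, and changed by -1.33 between P3 and P1 (limma adjusted p = 0.049). For adult minus P1, Ak1 (55.1 RPKM at P1) changed by 0.88 and Sesn1 by 0.97, with overlapping groups and neither called. Their median-relative changes there were 2.33 and 2.42, both called. The part of cell mix in the P3 values was not tested. Outside the naming rule, and chosen after their values were seen, are the partners of LKB1 and the other AMPK kinase. Cab39, which encodes the scaffold MO25 alpha, averaged 43.5 RPKM at P1, 43.4 RPKM at P3 and 17.6 RPKM in adult, changes of -1.29 and -1.28 against P1 and P3 (limma adjusted p = 1.5e-06 and 1.4e-06). The pseudokinase gene Strada averaged 1.06 RPKM in adult and changed by -1.57 and -1.40, whereas its paralog Stradb averaged 12.6 RPKM in adult and changed by 0.74 and 1.496, the second past both thresholds (limma adjusted p = 7.9e-06). Camkk2, which encodes CaMKK2, changed by -1.79 against P1 and -2.28 against P3 (limma adjusted p = 4.1e-07 and 1.4e-08). Median-relative changes against P1 and P3 were 0.17 and 0.27 for Cab39, -0.12 and 0.14 for Strada and -0.34 and -0.73 for Camkk2, none of them called. For Stradb they were 2.19 and 3.04, both called.

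Of 36 listed AMPK substrates 34 were tested. Against P1, 14 were called lower and 2 higher in adult, beside 62.7% lower and 4.32% higher of all tested genes, and the list median was -0.66 beside -1.36. Against P3, 14 were called lower and 7 higher, beside 62.7% and 9.16%, with a median of -0.38 beside -1.48. The median-relative counts were 4 lower and 13 higher against P1 (13.7% and 21.6% of all genes) and 6 lower and 18 higher against P3 (19.1% and 27.1%). Between P3 and P1, 2 were called lower and 0 higher, beside 5.31% and 1.4%.

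Among the substrates called lower in adult was Tbc1d1, a Rab GTPase-activating protein of glucose transporter traffic, at 0.58 ± 0.26 RPKM in adult (SD, n = 7), against 12.1 ± 2.09 RPKM at P1 and 17.0 ± 3.28 RPKM at P3 (SD, n = 4 each). Its log2 changes were -3.57 against P1 and -4.04 against P3. Hdac7, a class IIa histone deacetylase, changed by -2.71 against P1 and -3.90 against P3, Cry1, a clock repressor, by -2.60 against P1, and Crtc2, a CREB coactivator, by -2.84 against P3. Hdac7 and Crtc2 were highest at P3 on average, the stage with the most endothelial marker RPKM, and the part of cell mix in this was not tested.

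Acacb, the acetyl-CoA carboxylase that restrains mitochondrial fatty acid entry, averaged 16.2 ± 8.81 RPKM in adult, against 2.38 ± 2.46 RPKM at P3, a log2 change of 2.67 (SE 0.48, limma adjusted p = 3.8e-05). Pfkfb1, a bifunctional regulator of glycolysis, averaged 2.36 ± 0.70 RPKM in adult, against 0.55 ± 0.29 RPKM at P1, a change of 1.45 (limma adjusted p = 8.7e-06). Gys1, the muscle glycogen synthase, was 9.17 ± 2.88 RPKM at P3, against 25.2 ± 7.36 RPKM at P1, a change of -1.41 (limma adjusted p = 0.024). The lowest cardiomyocyte marker RPKM was also found at P3, and the part of cell mix in the P3 values of Acacb and Gys1 was not tested.

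The kinases related to AMPK, most of which LKB1 also phosphorylates, were mostly called lower in adult on the deposited scale, as were most genes. Of 13 listed, 9 were tested, 7 were called lower against P1 and 9 against P3, beside 62.7% of all genes in either comparison, and 0 were called higher. Their medians were -1.56 and -1.91 beside -1.36 and -1.48 for all genes. In median-relative values 1 was called lower and 1 higher against P1 (13.7% and 21.6% of all genes), and 0 in either direction against P3 (19.1% and 27.1%). Between P3 and P1, 0 were called. Nuak1 averaged 2.14 ± 0.51 RPKM in adult, against 15.8 ± 6.26 RPKM at P1 and 10.46 ± 3.38 RPKM at P3, with changes of -2.54 and -2.02. Sik1, a salt-inducible kinase, changed by -1.96 and -1.98. The microtubule affinity-regulating kinases changed by -1.89 for Mark3 against P1, by -1.68 and -2.15 for Mark4 against P1 and P3, and by -1.93 for Mark2 against P3.

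**Figure D5:**
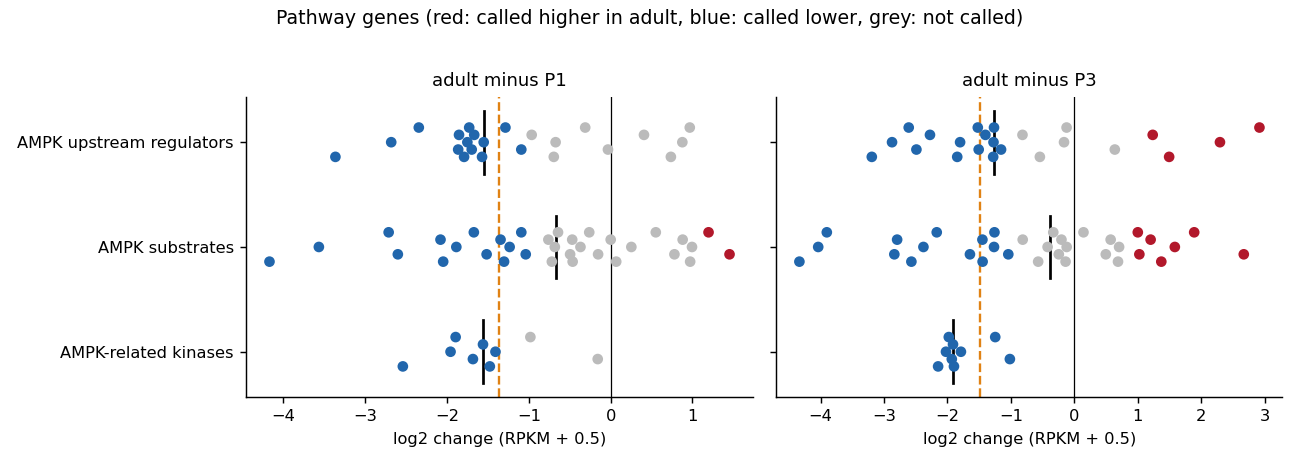
Each point is the limma log2 change of 1 tested gene of the 3 lists, for adult minus P1 (left) and adult minus P3 (right), coloured by call; black bars are list medians and dashed lines the median of all tested genes. The substrate median lies to the right of the all-gene median (-0.66 beside -1.36 against P1), and points called higher in adult are 2 substrates against P1, and 4 regulators and 7 substrates against P3.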

How the data were processed

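RNA-seq libraries of ventricular cardiomyocytes (4 P1, 4 P3, 7 adult) were analysed from RPKM values. Per the labels' protocols, total RNA was extracted with TRIzol and made into libraries with an Illumina TruSeq kit. The authors deposited 1 table of RPKM with 1 column per library, all of which were used. Per the submitters' processing notes, the tools were HISAT2 and Partek 6.6 and the build mm10. No source used here gives the annotation, the counting options or the strand.

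The tested genes reached an RPKM of 1 in 4 or more libraries. A linear model of log2(RPKM + 0.5) with 1 coefficient per stage over all 15 libraries was fitted in limma 3.58.1 (R 4.3.3) with a trended empirical Bayes step. Calls need an adjusted p (Benjamini-Hochberg over all tested genes) under 0.05 and a log2 change of 1 or more in either direction. Because the fold is taken after adding 0.5, it understates changes of low genes. Exact permutation tests over libraries were two-sided. The lowest RPKM in the table is 0.1001 and 0 values are at or below 0.1, so genes under that level in any library are not analysed here. RPKM is listed per gene, so isoforms of a gene are not separated. On simulated data for adult against P1 (9389 genes), 88% of genes planted at a log2 change of 1.5 and 96% at 2.5 were called, beside 7 unchanged genes. The simulated libraries held no shift of the scale between stages, so these figures do not cover errors from the shift seen in the data.

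The members, the gene lists and the alternatives were chosen with earlier results of these data known, so no list counts as independent support. Named genes are the 7 members, up to 4 called members per list and comparison with the largest change and no overlap, 1 of the lesser direction, and the 3 nearest genes of each member; a gene that this rule selects is not reported here. Replicate numbers were not used to pair libraries. Alternatives covered pseudocounts, filters, scalings, the variance model, the libraries in the fit and each library left out.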

Additional observations from a re-analysis of the deposited data

Results flagged for a closer look

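Of the 30 groups of values checked, 4 held a library far from the others, where chance alone gives about 1 in 20. Prkab1 in P1 replicate 2 was 10.6 RPKM, below the other P1 libraries at 12.0 to 12.2 RPKM. Prkag2 in P3 replicate 1 was 8.88 RPKM, above the other P3 libraries at 2.96 to 3.26 RPKM, and the log2 ratio of Prkag2 to Prkag1 in that library was -2.44, where the other P3 libraries had -3.18 to -3.08. That library also carried the most cardiomyocyte marker RPKM of the P3 group (6010 against 662 to 1359). The log2 ratio of Prkaa2 to Prkaa1 in adult replicate 4 was 1.57, below 2.54 to 3.22 in the other adult libraries, in the library with the largest RPKM sum of the adults (280112).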

How the results depend on the processing

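Each member other than Prkaa1 changed direction with the scaling in at least one comparison, whereas Prkaa1 stayed called lower in adult under each alternative run. Relative to the library median, by quantile normalization and by median-of-ratios scaling, in that order, the adult changes against P1 were 0.75, 0.62 and 0.80 for Prkaa2, 0.65, 0.59 and 0.69 for Prkab1, 0.33, 0.29 and 0.35 for Prkab2, 0.69, 0.40 and 0.79 for Prkag1, and 1.17, 1.08 and 1.22 for Stk11. Against P3 they were 0.58, 0.50 and 0.61 for Prkab1, 0.38, 0.37 and 0.40 for Prkab2, 1.32, 0.99 and 1.41 for Prkag1, 0.88, 0.77 and 0.76 for Prkag2, and 0.98, 0.88 and 1.03 for Stk11, while Prkab2 in P3 against P1 was -0.052, -0.075 and -0.044. With equal RPKM sums the reversed values were 0.38 for Stk11 against P1 and 0.33 for Prkag1 against P3. With equal sums without the 100 highest genes they were 0.27 for Prkaa2, 0.16 for Prkab1, 0.24 for Prkag1 and 0.68 for Stk11 against P1, and 0.75 for Prkag1, 0.18 for Prkag2 and 0.38 for Stk11 against P3. Without P1 replicate 1 and P3 replicate 1 and relative to the library median, the turned values were 0.15 for Prkaa2, 0.68 for Prkab1, 0.22 for Prkab2, 0.61 for Prkag1 and 1.22 for Stk11 against P1, 0.56 for Prkab1, 0.26 for Prkab2, 1.51 for Prkag1, 1.21 for Prkag2 and 1.02 for Stk11 against P3, and -0.039 for Prkab2 in P3 against P1. The near-zero values also turned with single libraries left out: Prkab2 in P3 against P1 ran from -0.14 to 0.27 and its ratio to Prkab1 from -0.38 to 0.19, and the ratio in adult against P3 from -0.54 to 0.027.

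Counts of members called followed. Under the 3 scalings named first, and with both replicates 1 left out on the median scale, 1 member was called lower and 1 higher against P1. Against P3, 1 was called lower under these scalings, with equal RPKM sums, without the 100 highest genes, with both replicates 1 left out on the median scale and with adult replicates 5 to 7 alone. The P3 count of members higher in adult was 2 relative to the median, 3 by median-of-ratios scaling, 4 relative to the median without both replicates 1, and 0 with adult replicates 1 to 4 alone. In P3 against P1, 0 members were called lower when only those 2 groups were fitted. Leaving out single libraries gave 3 to 4 members lower against P1, 0 to 1 higher and 1 to 3 lower against P3, and 0 to 2 lower in P3 against P1.

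Over all genes, those called higher in adult against P1 numbered 406 as reported, 2032 relative to the median, 1697 by quantile normalization, 1912 by median-of-ratios, 863 with equal sums, 1155 without the 100 highest genes and 1918 on the median scale without both replicates 1. The matching counts called lower were 5887, then 1282, 1639, 1509, 3886, 2934 and 1141. Against P3, 860 were called higher as reported, then 2547, 2174, 2386, 1617 without the 100 highest genes and 2623 on the median scale without both replicates 1, and 5891 lower, then 1797, 2342, 2060, 3646 and 1926. In P3 against P1, 131 were called higher as reported, 79 by median-of-ratios, 248 with equal sums, 499 without both replicates 1 and 436 with that on the median scale, and 499 lower, 86 with only the 2 groups, and 1090 and 1195 without both replicates 1 on the 2 scales. Single libraries left out gave 15 to 300 higher and 60 to 889 lower, the most without P3 replicate 1 and the fewest without P3 replicate 3. The cause was not tested.

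Replicate numbers are shared by the titles of the groups. For each gene the log2 value of a library was taken as its deviation from the group mean. These deviations, not whole profiles, were correlated between same-numbered libraries. The correlations were -0.51, -0.05, -0.25 and 0.37 for P3 and P1, and 0.28, 0.12, 0.078 and -0.017 for adult and P1. For adult and P3 they were -0.42, -0.071, -0.053 and 0.011. The numbers were not taken as pairs, since no comparison had all 4 above 0.1, although 1 P1 library correlated best with its own number in P3 and adult replicates 1 to 3 with theirs in P1. With the replicate number as a block, replicates 1 to 4 alone entered the adult comparisons. In the block fit 0 members were called lower in P3 against P1 and 0 higher in adult against P3, and over all genes 76 were higher and 107 lower in P3 against P1. The blocked ratio differences were 2.19 (alpha) and -1.64 (gamma) against P1 and 4.43 (alpha) against P3, with an adjusted p of 0.28 in each case by an exact sign-flip test, which with 4 pairs cannot go below 0.125 before adjustment. Against adult replicates 1 to 4 these ratio differences were the same, and with adult replicates 5 to 7 in their place 2.58, -1.45 and 4.82, all with an exact permutation p of 0.057 after adjustment and with groups that did not overlap. The gamma ratio in adult against P3 ran from -0.61 to -0.37 with single libraries left out. Depth limits the lowest values most: 86 reads behind Prkaa1 carry a counting error of 10.8%, or 15.2% where the even reads of that library count as 43, smaller than the differences reported for it, and intervals from reads cover counting error only.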

Other observations

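Adult replicate 4 held an end of the adult range for 4 of the 7 genes. It was the lowest adult library for Prkaa2 (4.57 RPKM) and Prkab2 (2.99 RPKM) and the highest for Prkag1 (35.9 RPKM) and Stk11 (14.3 RPKM). The same library had the highest summed markers of the adults for cardiomyocytes (34125 RPKM), endothelium (215 RPKM), fibroblasts (68.5 RPKM) and mural cells (98.3 RPKM).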
